A study of Homo sapiens with 6 samples.

Results

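The 9 genes described here encode the enzymes that make serine from a glycolytic intermediate and those that move its side-chain carbon through folate carriers: PHGDH, PSAT1, PSPH, SHMT1, SHMT2, MTHFD1, MTHFD1L, MTHFD2 and ALDH1L2. They were taken by gene symbol, with 1 row for each symbol, from a deposited table of 60664 genes. All 9 passed the filter on low counts, as did 17258 genes in all. RNA came from H7 cells, a line of human embryonic stem cells in wide use, in 3 libraries of a SAMD4A knockdown line and 3 control libraries of the same line. SAMD4A, of the Smaug family, binds RNA hairpins and represses messages, and the series asks what it does in self-renewal and lineage choice. Both groups were grown on Matrigel in mTeSR Plus. The labels give neither the knockdown construct nor what the control cells received, so effects of the construct and of SAMD4A loss cannot be told apart. They also do not say whether replicates were separate cultures, so p-values measure only the spread between these libraries, which may be technical.

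Serine synthesis leaves glycolysis at 3-phosphoglycerate. PHGDH oxidises this compound, PSAT1 adds an amino group and PSPH removes the phosphate. Serine hydroxymethyltransferase then splits serine into glycine and a one-carbon unit bound to tetrahydrofolate, in mitochondria (SHMT2) or in the cytosol (SHMT1). In mitochondria MTHFD2 oxidises the unit, and then either MTHFD1L releases it as formate or ALDH1L2 burns it to carbon dioxide with gain of NADPH. In the cytosol the single protein MTHFD1 carries out the matching steps and takes up formate for purine, thymidylate and methionine synthesis. In most proliferating cells the cycle runs from mitochondria to cytosol, and ATF4, a transcription factor of the amino acid response, is known to induce serine synthesis genes, SHMT2 and MTHFD2.

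Library totals ran from 19588021 to 21355171 counts in knockdown and from 19270688 to 20070027 in control. CPM gives a gene's share of its library in counts per 1000000, after TMM scaling. SAMD4A had 27.4, 28.5 and 28.5 CPM in knockdown libraries, against 52.2, 55.96 and 49.8 CPM in control libraries, or -0.90 ± 0.07 on the log2 scale (SE, edgeR adjusted p = 9.0e-08). All 7 markers of embryonic stem cells were detected, with summed levels of 7224 to 7672 CPM in knockdown and 5660 to 5806 CPM in control. Most of that gap was DNMT3B, a DNA methyltransferase, with 2728 ± 39.2 CPM in knockdown and 1296 ± 1.89 CPM in control (SD, n = 3 each). Of the 7, POU5F1, DNMT3B, PRDM14 and TDGF1 were higher and SOX2 and LIN28A did not pass. NANOG was lower (-0.25, edgeR adjusted p = 0.011), a call lost without control replicate 3 (-0.22, 0.054). With libraries scaled by their totals alone, POU5F1 (0.035, edgeR adjusted p = 0.55) and TDGF1 (0.081, 0.14) lost their calls. SOX2 (-0.18, edgeR adjusted p = 0.0027) and LIN28A (-0.18, 0.002) were called lower under that scaling. Knockdown replicate 1 stood apart in 6 early neural markers, with a summed 19.5 CPM, while knockdown replicates 2 and 3 had 1.83 and 1.62 CPM and controls 13.5 to 17.1 CPM. Markers of mesendoderm and endoderm summed to 2.05 to 7.92 CPM in knockdown and 2.79 to 3.33 CPM in control. Without that library the log2 fold changes of the 6 lower members were -0.39 for PHGDH, -0.94 for PSAT1, -0.79 for PSPH, -0.79 for SHMT2, -0.86 for MTHFD2 and -1.38 for ALDH1L2. Genes of the mitochondrial genome took 4.87 to 5.12% of counts in knockdown and 3.31 to 3.46% in control, and the part of this difference in the members' values was not tested. Of 7 markers of amnion and trophoblast 3 were tested and 2 fell, GABRP and KRT7 (summed 10.01 to 13.6 CPM in knockdown, 17.1 to 22.2 CPM in control). The KRT7 groups overlapped, and its call was lost in 4 of 14 alternative settings (edgeR adjusted p up to 0.18). The 6 fibroblast markers summed to 306 to 330 CPM in knockdown and 354 to 393 CPM in control. Of 4 tested, COL1A1 (-0.26, edgeR adjusted p = 0.0032) and COL1A2 (-0.14, 0.024) fell, the latter call lost in 5 of 14 alternatives. PDGFRB (-0.23, edgeR adjusted p = 0.21) and POSTN (0.53, 0.091) did not pass. POSTN went the other way, with every knockdown library above every control library, so these markers did not move together. DCN, another fibroblast marker, was at 0 in all libraries. The part of such cells in the members' changes was not tested, and in bulk RNA fewer cells of a type and less RNA per cell cannot be told apart.

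In the knockdown libraries 6 of the 9 genes were lower: all 3 serine synthesis genes and 3 of the 4 mitochondrial folate genes, SHMT2, MTHFD2 and ALDH1L2. The mitochondrial gene MTHFD1L did not pass the test. The cytosolic pair, SHMT1 and MTHFD1, was slightly higher, a call that depended on how the libraries were scaled. Over all genes tested, 25.6% were lower, 26.1% higher and 51.7% changed in either direction, so a change by itself sets no gene apart. The median log2 fold change was -0.76 over the 9 genes and -0.01 over all genes tested. Where libraries were scaled by their totals alone, calls over the whole table numbered 2704 higher and 6410 lower, against 4503 and 4423 with TMM factors. The median of all genes then moved to -0.17, and members are described relative to that shift where it matters.

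Sequences before the start sites are shown for the pair of lower members with the closest log2 fold changes, PSAT1 and MTHFD2 (both -0.93). Short stretches are shown for the genes with a match to TGATGNAA or CACGTG that did not fall. They are from RefSeq (GRCh38.p14, 5′ to 3′ on the plus strand, which is the strand of each gene). RefSeq windows of 250 bases before to 50 after a start were at hand for 6 members: PHGDH, PSAT1, MTHFD2, MTHFD1L, SHMT1 and MTHFD1. Each was searched on both strands for TGATGNAA, a core of sites bound by ATF4 with CEBP proteins, for CACGTG, the E-box bound by MYC-type factors, and for TGANNNNGC, a core of NFE2L2 sites. Capitals mark a match to the motif named beside the stretch. The first is PSAT1 at chr9:78296875-78297124 and the second MTHFD2 at chr2:74198365-74198561, which overlaps an exon of an opposite-strand transcript, AC073263.2, in GENCODE 29. The MTHFD2 stretch ends where the first MTHFD2 exon of GENCODE 29 within this window begins, at 74198562. Exons outside the window were not searched, and the deposited span of MTHFD2 begins before the stretch, at 74186172. The RefSeq start used here is at 74198615, and the bases between the stretch and that start are not shown. The next pair is MTHFD1L at chr6:150866346-150866375 around TGATGNAA and at chr6:150866320-150866349 around CACGTG, and the last is MTHFD1 at chr14:64388326-64388355 around CACGTG. The MTHFD1 match begins at -15 from its RefSeq start. That stretch lies within an MTHFD1 exon of GENCODE 29, at 64388031 to 64388468.
PSAT1 before the start: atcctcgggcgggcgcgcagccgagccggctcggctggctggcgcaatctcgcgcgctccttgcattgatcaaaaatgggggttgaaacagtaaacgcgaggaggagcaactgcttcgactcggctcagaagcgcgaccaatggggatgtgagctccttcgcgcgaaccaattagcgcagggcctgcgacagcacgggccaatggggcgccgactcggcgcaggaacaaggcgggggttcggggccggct
MTHFD2 before the start: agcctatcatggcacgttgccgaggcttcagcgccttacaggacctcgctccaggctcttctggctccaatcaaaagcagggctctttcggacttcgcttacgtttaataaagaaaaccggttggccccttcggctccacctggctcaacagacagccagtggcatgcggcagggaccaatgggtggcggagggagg
MTHFD1L around TGATGNAA: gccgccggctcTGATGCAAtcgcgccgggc
MTHFD1L around CACGTG: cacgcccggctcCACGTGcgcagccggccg
MTHFD1 around CACGTG: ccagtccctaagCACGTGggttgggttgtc
The letters TGATGNAA were found only in MTHFD1L, beginning 24 bases after the first of its RefSeq starts, in 3 overlapping windows. They occur in 3.62% of the 35116 RefSeq windows of 300 bases. CACGTG was found in MTHFD1L and MTHFD1, against 7.26% of all windows. Both genes with these matches are among the 3 that did not fall. All 3 of those had a window, while PSPH, SHMT2 and ALDH1L2, which fell, had none and were not searched. The search therefore cannot show whether a match goes with the direction of change. TGANNNNGC was found in 5 of the 6 members, all but PSAT1. By window it was found in 5 of the members' 9, against 41.8% of all windows. A match is a description of letters and shows no binding, and a window without one shows only that these letters are absent there.

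PHGDH, the first and committing enzyme of serine synthesis (ENSG00000092621, chromosome 1, 119648411 to 119744218, plus strand, GRCh38), had the smallest fall of the 6. Its level was 646, 606 and 631 CPM in knockdown replicates 1 to 3, against 824, 833 and 783 CPM in control replicates 1 to 3. Every knockdown library lay below every control library. The log2 fold change was -0.37 ± 0.04 (SE, edgeR adjusted p = 3.6e-06), which left 77.2% of the control level.

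PSAT1, the aminotransferase (ENSG00000135069, chromosome 9, 78297125 to 78330093, plus strand), fell further. It had 497, 492 and 475 CPM in knockdown libraries, against 879, 976 and 938 CPM in control libraries. The groups were far apart and the knockdown libraries lay close together. Its log2 fold change was -0.93 ± 0.05 (SE, edgeR adjusted p = 3.9e-10), or 52.4% of control.

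PSPH, the phosphatase that yields serine (ENSG00000146733, chromosome 7, 56011051 to 56051604, minus strand), was the least abundant of these 3 messages. It had 59.4, 56.9 and 53.3 CPM in knockdown libraries, against 94.5, 98.2 and 94.6 CPM in control libraries. The groups again did not overlap. Its log2 fold change was -0.76 ± 0.06 (SE, edgeR adjusted p = 4.7e-08), or 59.1% of control.

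SHMT2, the mitochondrial serine hydroxymethyltransferase (ENSG00000182199, chromosome 12, 57229573 to 57234935, plus strand), had 384, 372 and 390 CPM in knockdown libraries, against 703, 673 and 609 CPM in control libraries. Control libraries spread more widely than knockdown libraries, and all lay above them. The log2 fold change was -0.79 ± 0.05 (SE, edgeR adjusted p = 8.4e-09), or 57.8% of control.

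MTHFD2, the mitochondrial methylene-tetrahydrofolate dehydrogenase (ENSG00000065911, chromosome 2, 74186172 to 74217565, plus strand), had 236, 269 and 276 CPM in knockdown libraries, against 480, 499.6 and 506 CPM in control libraries. Knockdown replicate 1 was the lowest of all 6. The log2 fold change was -0.93 ± 0.06 (SE, edgeR adjusted p = 3.1e-09), or 52.6% of control, and it was -0.86 without knockdown replicate 1.

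ALDH1L2, the mitochondrial formyl-tetrahydrofolate dehydrogenase (ENSG00000136010, chromosome 12, 105019784 to 105107643, minus strand), showed the largest fall of the 9. It had 27.7, 27.02 and 29.05 CPM in knockdown libraries, against 67.5, 73.8 and 78.5 CPM in control libraries. No knockdown library came near a control library. The log2 fold change was -1.39 ± 0.07 (SE, edgeR adjusted p = 7.4e-10), which left 38.1% of the control level. Of all genes tested, 2.85% had a fold change as low or lower.

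MTHFD1L, the mitochondrial formate-releasing enzyme (ENSG00000120254, chromosome 6, 150865679 to 151101887, plus strand), was the exception in the mitochondrial arm. It had 132, 133 and 122 CPM in knockdown libraries, against 128, 131 and 125 CPM in control libraries. The groups overlapped. Its log2 fold change was 0.01 ± 0.05 (SE, edgeR adjusted p = 0.86). With total counts only it was -0.15 (edgeR adjusted p = 0.026), close to the shift of all genes under that scaling, and over all alternatives the adjusted p ran from 0.026 to 0.99.

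**Figure D1:**
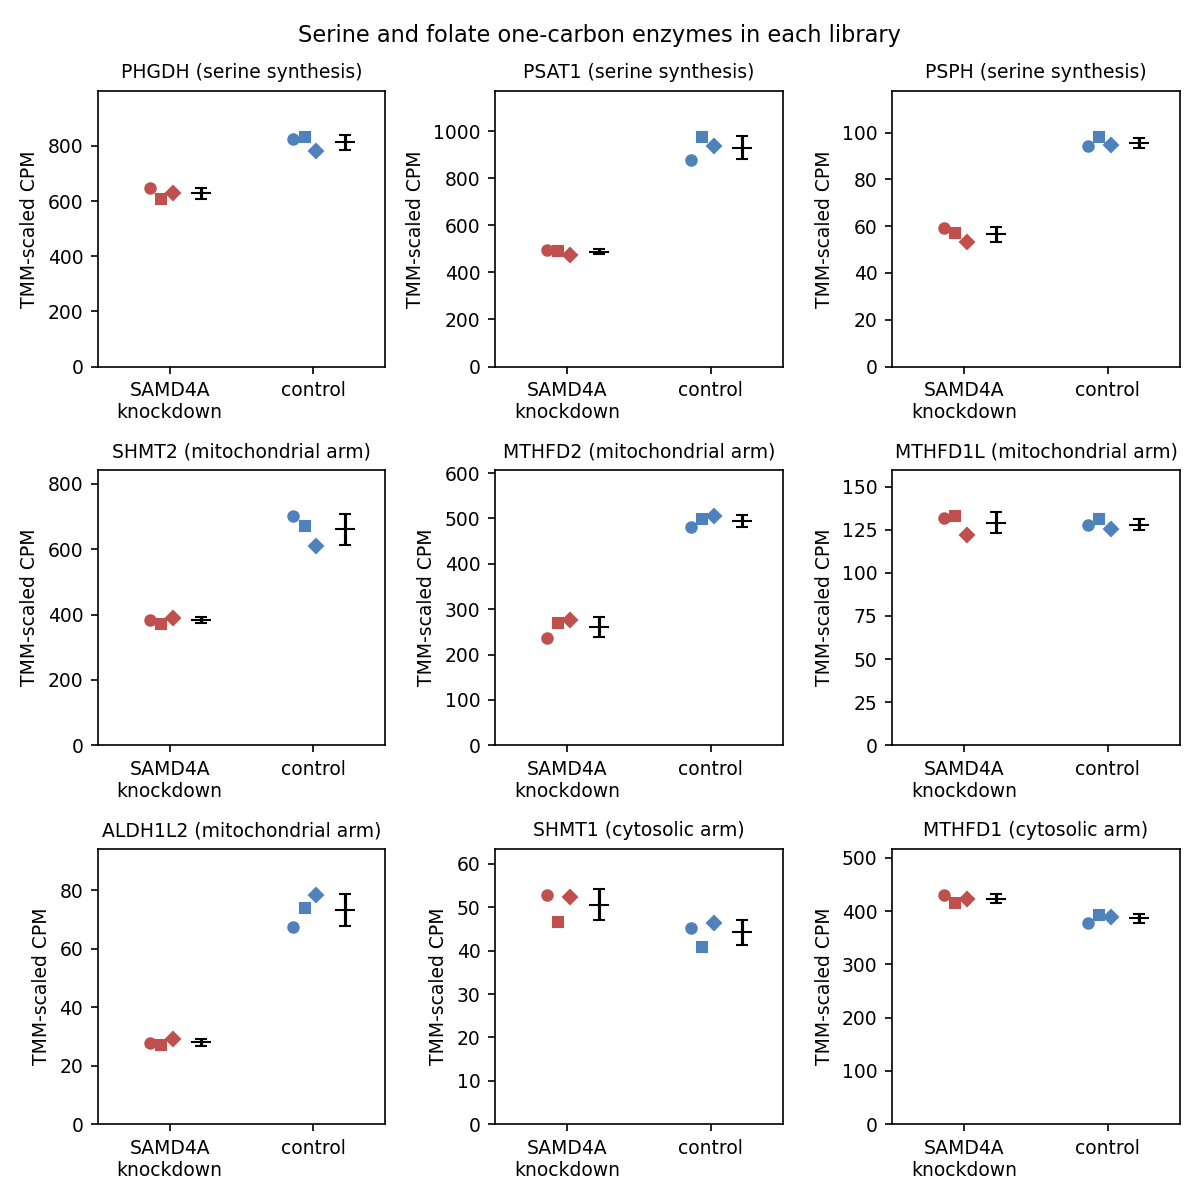
TMM-scaled CPM of each of the 9 genes (vertical axes, from 0) in 3 SAMD4A knockdown and 3 control libraries; circles, squares and diamonds are replicates 1, 2 and 3, and black bars give the mean ± SD. The groups are apart for PHGDH, PSAT1, PSPH, SHMT2, MTHFD2 and ALDH1L2, overlap for MTHFD1L and lie close for SHMT1 and MTHFD1.

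SHMT1, the cytosolic counterpart of SHMT2 (ENSG00000176974, chromosome 17, 18327860 to 18363563, minus strand), had 52.9, 46.6 and 52.4 CPM in knockdown libraries, against 45.3, 40.9 and 46.5 CPM in control libraries. Knockdown replicate 2 and control replicate 3 were nearly equal, with 46.56 and 46.48 CPM. The log2 fold change of 0.19 ± 0.08 (SE) just passed the test (edgeR adjusted p = 0.041). The call was lost without knockdown replicate 1 (0.16, edgeR adjusted p = 0.064) or 3 (0.18, 0.12), without control replicate 1 (0.21, 0.062) or 2 (0.14, 0.20), with upper-quartile factors (0.15, 0.11) and with total counts only (0.04, 0.71). Over all alternatives the adjusted p ran from 0.016 to 0.71.

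MTHFD1, the trifunctional cytosolic enzyme (ENSG00000100714, chromosome 14, 64388031 to 64463457, plus strand), had 431, 414 and 423 CPM in knockdown libraries, against 378, 393 and 388 CPM in control libraries. All knockdown libraries lay above all control libraries under this scaling. Its log2 fold change was 0.13 ± 0.04 (SE, edgeR adjusted p = 0.016). It kept its call when any single library was left out, lost it with upper-quartile factors (0.09, edgeR adjusted p = 0.090), and turned to -0.03 with total counts only (0.59), in a range of 0.0067 to 0.59 over the alternatives.

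In total 8 of the 9 genes had groups that did not overlap, all but MTHFD1L, against 58.3% of all genes tested. Reads from opposite strands can be told apart only if strand was used in counting, a setting not given in the sources used here. ALDH1L2 overlaps WASHC4 (1466 mean counts in knockdown, 1257 in control) and C12orf45 (1040 and 1185) on the other strand. SHMT1 overlaps SMCR8 (1275 in knockdown, 860 in control) and MTHFD1 overlaps ZBTB25 (349 and 513). The part these neighbours have in the members' counts was not tested. The table lists 14 genes named as pseudogenes of members, of which MTHFD2P7 was highest, with a mean of 2.67 counts in knockdown and 5 in control.

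**Figure D2:**
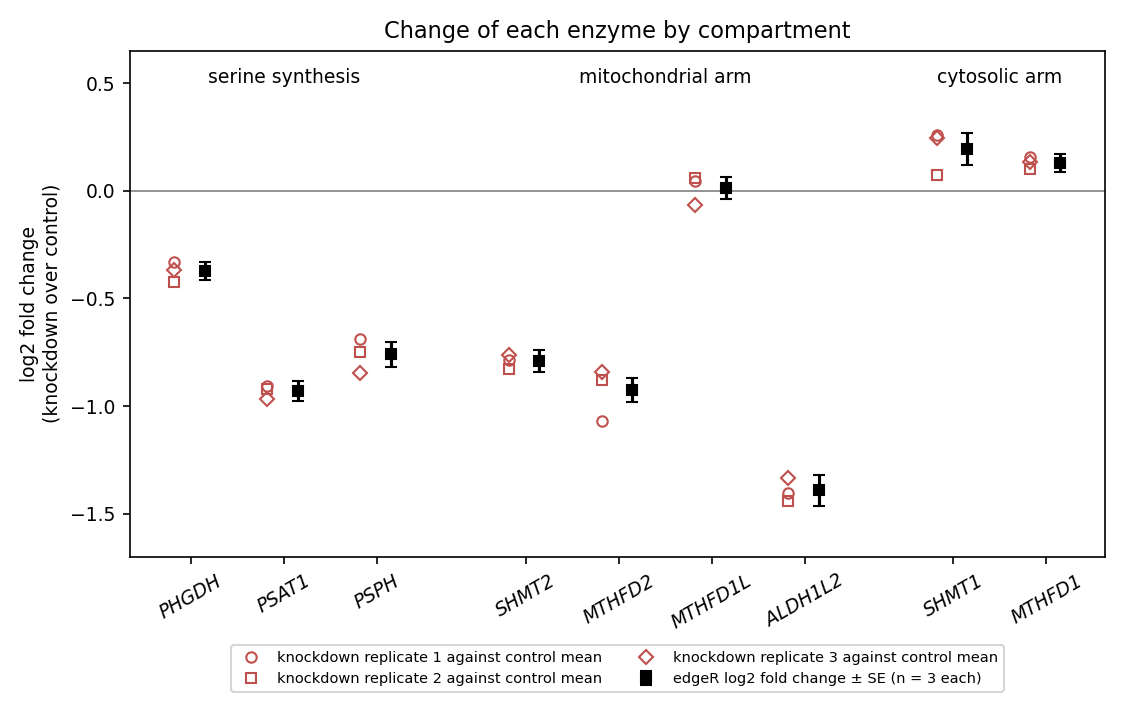
Log2 fold change of knockdown over control (vertical axis) for each gene, grouped by pathway arm; open symbols are single knockdown libraries against the control mean and black squares the edgeR estimate ± SE from 3 libraries a group. The serine synthesis genes lie between -0.37 and -0.93, MTHFD1L at 0.01 among mitochondrial genes between -0.79 and -1.39, and the cytosolic genes at 0.13 and 0.19.

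The knockdown libraries resembled each other for these genes, as the plot of fold changes by arm shows. Against the control mean, PSAT1 was at -0.91, -0.92 and -0.97 on the log2 scale in knockdown replicates 1, 2 and 3. ALDH1L2 was at -1.40, -1.44 and -1.33, and MTHFD2 had the widest spread of the 6 lower genes, at -1.07, -0.88 and -0.84. With any 1 library left out, each of the 6 kept its call, with log2 fold changes of -1.45 to -1.34 for ALDH1L2 and -0.40 to -0.34 for PHGDH at the extremes.

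Setting SHMT2, MTHFD2 and MTHFD1L each against a cytosolic enzyme in the same library removes the scaling. ALDH1L2 was not set against ALDH1L1, its cytosolic counterpart, which stood at -0.50 ± 0.24 on the log2 scale (SE, edgeR adjusted p = 0.090). ALDH1L1 averaged 1.91 CPM in knockdown and 2.71 CPM in control, and was called lower with total counts only (-0.66, 0.029). MTHFD2L, a mitochondrial relative of MTHFD2, rose by 0.40 ± 0.12 (SE, edgeR adjusted p = 0.014) and lost that call in 3 of 14 alternatives. For the 3 ratios counts per kilobase of the deposited exon length were used, so that levels of different genes can be compared as far as that length holds. The expressed transcripts may be shorter or longer, so levels and order between genes rest on it. The log2 differences between groups do not. Without length, MTHFD2 lay above MTHFD1 in control (495 and 386 CPM), and per kilobase it lay below, with 4403 and 3154 bases. SHMT2 stood at 8.50, 9.37 and 8.73 times the level of SHMT1 in knockdown libraries, against 18.2, 19.2 and 15.4 times in control libraries. The mitochondrial form thus dominated in both groups, and its lead was smaller in every knockdown library. The log2 ratio differed by -0.98 ± 0.11 (SE, knockdown minus control, n = 3 each).

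MTHFD2 stood at 0.393, 0.466 and 0.467 of the MTHFD1 level in knockdown libraries, against 0.912, 0.911 and 0.933 in control libraries, a log2 difference of -1.06 ± 0.08 (SE). The groups did not overlap. MTHFD1L stood at 0.280, 0.294 and 0.264 of the MTHFD1 level in knockdown libraries, against 0.309, 0.305 and 0.295 in control libraries. Its log2 difference was only -0.12 ± 0.05 (SE), and the nearest libraries of the groups almost met. For each of these 3 ratios an exact two-sided permutation test over libraries gave p = 0.10 (0.10 after Benjamini-Hochberg adjustment over the 3), which is the smallest p that 3 libraries against 3 allow, so none can pass. Without any 1 library the differences ran from -1.08 to -0.91 for SHMT2 over SHMT1, from -1.10 to -0.98 for MTHFD2 over MTHFD1 and from -0.16 to -0.08 for MTHFD1L over MTHFD1.

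**Figure D3:**
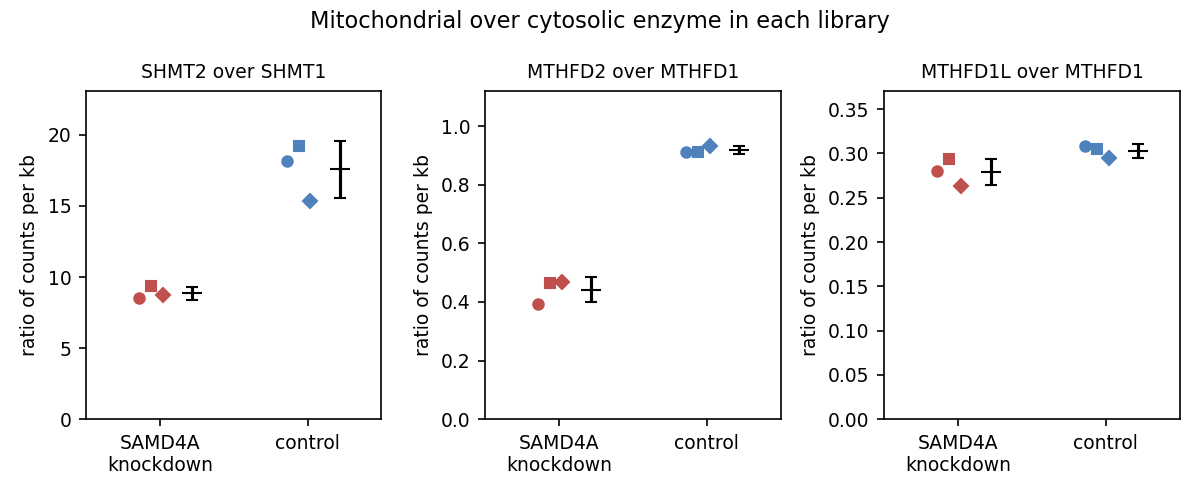
Ratio of counts per kilobase of a mitochondrial to a cytosolic enzyme (vertical axes, linear from 0) in 3 SAMD4A knockdown and 3 control libraries, with replicates 1, 2 and 3 as circles, squares and diamonds and black bars for mean ± SD. The mean SHMT2 to SHMT1 ratio is 8.87 in knockdown and 17.6 in control, that of MTHFD2 to MTHFD1 is 0.442 and 0.919, and that of MTHFD1L to MTHFD1 is 0.279 and 0.303.

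On the per-length scale, with the same limit on the deposited length, the enzymes spanned a wide range. In knockdown libraries the order was PHGDH (336 ± 10.8 CPM per kilobase), PSAT1 (221 ± 5.07), SHMT2 (177 ± 4.25), MTHFD1 (134 ± 2.65), MTHFD2 (59.2 ± 4.86), MTHFD1L (37.4 ± 1.75), PSPH (28.6 ± 1.56), SHMT1 (20.03 ± 1.40) and ALDH1L2 (3.76 ± 0.14; SD, n = 3). In control libraries PHGDH (436 ± 14.2) and PSAT1 (422 ± 22.1) came first, with ranges that overlapped. SHMT2 (307 ± 22.1), MTHFD1 (122 ± 2.49), MTHFD2 (112 ± 3.02), PSPH (48.5 ± 1.07), MTHFD1L (37.1 ± 0.88), SHMT1 (17.5 ± 1.15) and ALDH1L2 (9.86 ± 0.74) followed with no other overlap between neighbours. PSPH stood below MTHFD1L in knockdown and above it in control, and PHGDH and PSAT1 were separate in knockdown. PHGDH exceeded 99.1% of all genes tested in knockdown and 99.5% in control on this scale, and ALDH1L2 exceeded 43.3% in knockdown and 63.1% in control.

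Genes that surround the pathway were taken from lists chosen with earlier results of these data known, and are described by counts and medians, to be read against the 26.1% higher and 25.6% lower among all genes tested and their median of -0.01. Among 11 tested genes of 13 in the list of other mitochondrial folate, glycine cleavage and carrier genes, 5 rose, 1 fell and 5 did not pass, with a median log2 fold change of 0.31. SFXN3 and SFXN1, carriers of the family that brings serine into mitochondria, rose by 0.70 ± 0.18 and 0.53 ± 0.06 (SE, edgeR adjusted p = 0.0039 and 3.9e-06). SFXN1, the better expressed, averaged 93.1 ± 1.73 CPM in knockdown and 64.5 ± 4.95 CPM in control (SD, n = 3 each). GCAT, which links threonine breakdown to glycine, stood at -0.27 ± 0.09 on the log2 scale (SE, edgeR adjusted p = 0.018). That call was lost without knockdown replicate 2 (-0.24, edgeR adjusted p = 0.072) or 3 (-0.23, 0.082) or control replicate 2 (-0.26, 0.064) or 3 (-0.25, 0.068), in a range of 0.00078 to 0.082. The count of risen genes was 3 without control replicate 1 and 3 with total counts only.

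In the list of other cytosolic folate genes 11 of 12 were tested, of which 4 rose, 1 fell and 6 did not pass, with a median of 0.20. FPGS, which traps folates in the cell by adding glutamates, rose by 0.37 ± 0.06 (SE, edgeR adjusted p = 1.1e-04). GGH, which removes those glutamates, fell by 0.29 ± 0.08 on the log2 scale (edgeR adjusted p = 0.0064). The counts were 6 risen and 3 fallen without knockdown replicate 1, and 2 and 3 with total counts only.

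Purine synthesis takes formyl groups from the cytosolic folate pool. Of its 8 genes, all tested, 6 rose and PPAT and ATIC did not pass, with a median of 0.52, though with total counts only 5 rose and PPAT (-0.18) and ATIC (-0.11) were called lower. PRPS2, which makes the ribose donor, rose by 0.90 ± 0.10 and PFAS, an amidotransferase of the pathway, by 0.67 ± 0.04 (SE, edgeR adjusted p = 2.5e-06 and 7.7e-09). PFAS averaged 295 ± 6.24 CPM in knockdown and 185 ± 2.38 CPM in control (SD, n = 3 each).

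Of 9 genes of the methionine cycle and of transsulfuration 3 rose, 3 fell and 3 did not pass (median 0.17), shares near the 26.1% and 25.6% of all genes tested, and 5 rose without knockdown replicate 1. MAT2A, the catalytic subunit that makes S-adenosylmethionine, rose by 1.01 ± 0.05 and its regulatory partner MAT2B by 0.56 ± 0.06 (SE, edgeR adjusted p = 3.4e-10 and 3.0e-06). CTH, which makes cysteine from the serine-derived intermediate cystathionine, fell by 1.38 ± 0.07, and MTRR, which reactivates methionine synthase, fell by 0.36 ± 0.06 on the log2 scale (SE, edgeR adjusted p = 7.6e-10 and 9.9e-05). CTH averaged 32.1 ± 2.77 CPM in knockdown and 83.6 ± 3.93 CPM in control (SD, n = 3 each), a fall close in size to that of ALDH1L2.

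Uptake of serine and glycine was represented by 6 tested transporters of 7. Of these 3 fell, 1 rose and SLC38A1 and SLC7A10 did not pass (median -0.43). SLC1A4, an exchanger of serine and other small neutral amino acids, averaged 6.57 ± 0.51 CPM in knockdown and 28.97 ± 2.78 CPM in control (SD, n = 3 each), and its log2 fold change was -2.14 ± 0.11 (SE, edgeR adjusted p = 6.2e-10). SLC6A9, a glycine transporter, fell by 1.01 ± 0.07, while SLC38A2, an amino acid transporter, rose by 0.32 ± 0.06 (SE, edgeR adjusted p = 2.3e-08 and 5.2e-04). SLC38A2 rose in all 3 knockdown libraries, by 0.19, 0.46 and 0.31 against the control mean.

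Of 6 glycolytic genes around the branch point 5 rose and ENO2 did not pass (median 0.32). GAPDH rose by 0.50 ± 0.05 and PGAM1, which draws 3-phosphoglycerate toward pyruvate and so away from PHGDH, by 0.40 ± 0.05 (SE, edgeR adjusted p = 4.9e-07 and 3.6e-06). ENO2 had a log2 fold change of -0.18 and passed as lower without knockdown replicate 3 (-0.23, edgeR adjusted p = 0.035) and without control replicate 3 (-0.23, 0.042). With total counts only 4 rose and ENO2 was lower. Of 8 other genes whose products use serine 7 were tested, of which 3 rose and 3 fell (median -0.16). The smallest of these falls was SPTLC1 (-0.16, edgeR adjusted p = 0.04). Its groups overlapped and its call was lost in 7 of 14 alternatives. PTDSS1 and PTDSS2, which exchange serine into phosphatidylserine, rose by 0.40 ± 0.05 and 0.31 ± 0.08 (SE, edgeR adjusted p = 1.5e-05 and 0.0031), and PTDSS2 lost its call with total counts only. SDSL, of the serine dehydratase family, had a log2 fold change of -2.68 ± 0.30 and SRR, serine racemase, one of -0.95 ± 0.17 (SE, edgeR adjusted p = 2.9e-06 and 3.3e-04), both at low levels of 0.78 and 3.22 CPM in knockdown and 5.06 and 6.22 CPM in control.

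**Figure D4:**
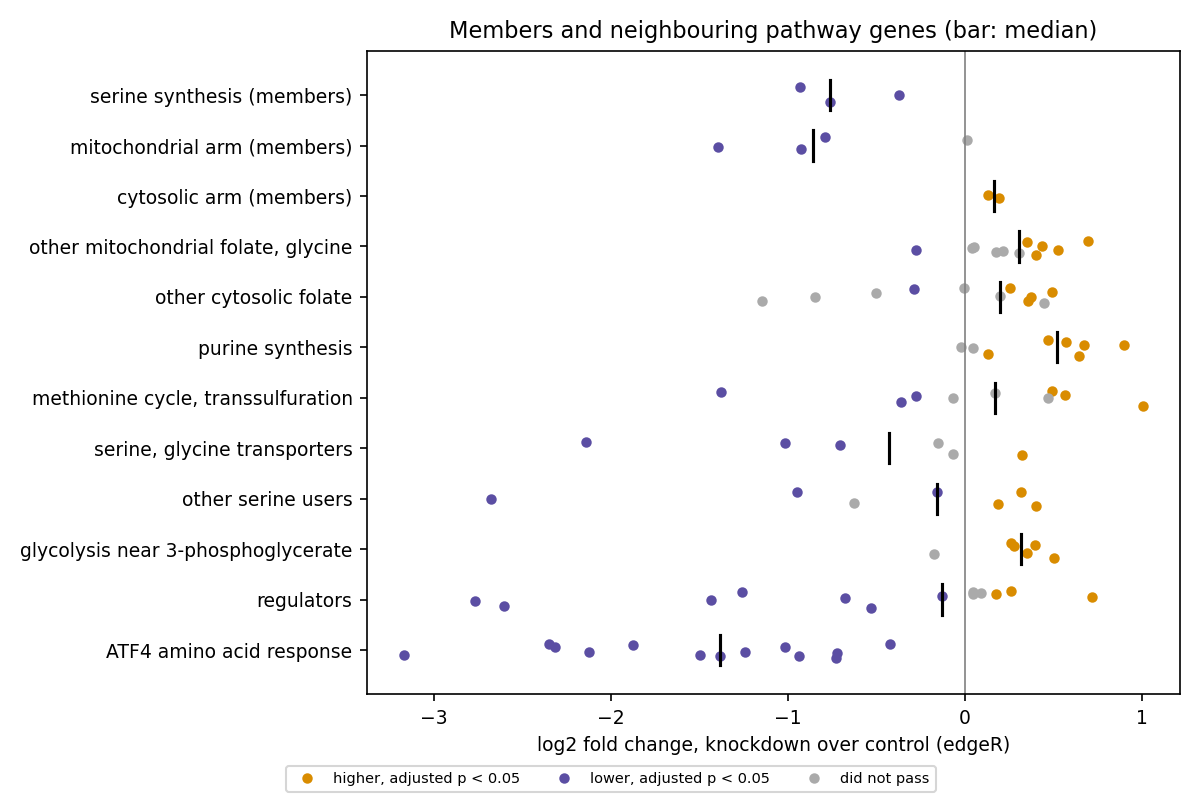
Log2 fold change of knockdown over control (horizontal axis, edgeR, 3 libraries a group) for each tested gene, 1 row for each list; colour gives the call at an adjusted p of 0.05 and the bar the list's median. The ATF4 amino acid response genes lie lowest, with a median of -1.38, and purine synthesis highest, with a median of 0.52.

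Regulators of the pathway did not move as a block. ATF4 itself was higher, with 632, 598 and 621 CPM in knockdown libraries, against 382, 373 and 371 CPM in control libraries. The groups were far apart, at 0.72 ± 0.04 on the log2 scale (SE, edgeR adjusted p = 2.3e-09). ATF4 is known to be controlled mainly at translation, so its message is no measure of the protein. Its dimer partners and relatives were lower: CEBPG by -1.26 ± 0.05, CEBPB by -1.44 ± 0.07, DDIT3 by -2.77 ± 0.15 and ATF5 by -2.61 ± 0.12 on the log2 scale (SE, edgeR adjusted p at most 1.1e-09). MYC, known to induce SHMT2 and serine synthesis genes, fell by 0.68 ± 0.06, and NFE2L2, the antioxidant factor NRF2, fell by 0.53 ± 0.06 (SE, edgeR adjusted p = 1.4e-07 and 2.1e-06). MTOR rose by 0.26 ± 0.05 (SE, edgeR adjusted p = 2.6e-04) and kept that call except with total counts only (0.10, 0.079), in a range of 1.7e-06 to 0.079. MYCN, EIF2AK3 and EIF2AK4 did not pass, at 0.05, 0.05 and 0.09.

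E2F1, a cell cycle transcription factor, was at the limit of the test. It stood at 0.17 ± 0.06 on the log2 scale (SE, edgeR adjusted p = 0.030). It lost its call without knockdown replicate 3 (0.14, edgeR adjusted p = 0.12) or control replicate 1 (0.17, 0.062), 2 (0.19, 0.067) or 3 (0.17, 0.075), with upper-quartile factors (0.13, 0.094), with total counts only (0.015, 0.86) and with the replicate block (0.17, 0.051), in a range of 0.019 to 0.86.

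Of 14 further genes known to be induced by ATF4 in the amino acid response 13 were tested, and all 13 were lower, with a median of -1.38. The fall was the same in count under each scaling and with each library left out. Since this list was chosen with such falls known, the count is a description. TRIB3, a pseudokinase that feeds back on ATF4, averaged 24.8 ± 1.49 CPM in knockdown and 223 ± 7.40 CPM in control (SD, n = 3 each), and DDIT4, an inhibitor of mTORC1, averaged 111 ± 31.1 CPM in knockdown and 563 ± 26.9 CPM in control. Their log2 fold changes were -3.17 ± 0.06 and -2.35 ± 0.13 (SE, edgeR adjusted p = 1.2e-14 and 8.8e-10). The smallest fall among the 13 was that of SLC7A5, at -0.42, and the 6 lower members stood between -1.39 and -0.37.

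Genes with the most similar profile were found for each member among 10334 genes that averaged 10 CPM or more, as the smallest root mean square distance between log2 CPM centred over the 6 libraries. For the serine synthesis genes they were MARK3, SRSF8 and HK1 (PHGDH), STX16, RIPK2 and JDP2 (PSAT1), and MARVELD2, SDE2 and SLC3A2 (PSPH). For the mitochondrial genes they were ARHGEF2, GFOD1 and GTF2IRD1 (SHMT2), CEP120, ERI2 and TUFT1 (MTHFD2), KRCC1, C1orf226 and SNX10 (ALDH1L2), and RGL2, SMIM20 and TCF7 (MTHFD1L). For the cytosolic genes they were PTRHD1, CHST11 and RPAIN (SHMT1), and CAPRIN1, HMGN3 and RBM28 (MTHFD1). Distances ran from 0.0094 for CAPRIN1 to 0.076 for SNX10. JDP2 and SLC3A2 also stand in the list of ATF4 response genes. No member was the closest gene of another. The best place of a member was that of PSAT1, number 49 in the order for MTHFD2, and MTHFD2 was number 87 in that for PSAT1. A place also depends on how many other genes lie near, so it does not rank the distances between members. Pearson correlation over the libraries named other genes, sharing 0 of 3 neighbours for 8 members and 1 of 3 for MTHFD1L. These likenesses rest on 6 points in 2 groups and carry no p.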

How the data were processed

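Poly-A RNA-seq of 6 H7 libraries, 3 of a SAMD4A knockdown line and 3 of the control, was used as raw read counts per gene, as deposited by the authors, with an exon length for each gene. HISAT2, HTSeq and GRCh38 are named in the submitters' processing notes. Versions and strandedness: not given in the sources used here. Low counts were filtered with filterByExpr, libraries were scaled by TMM, and groups were compared with edgeR 4.0.16 (R 4.3.3) by its two-sided quasi-likelihood test, its p-values adjusted after Benjamini and Hochberg across the 17258 genes that passed, and calls made under 0.05. An SE belongs to the log2 fold change of knockdown over control. The method was tested on simulated data. Counts of libraries within a group differed beyond sampling noise. Each was kept as a replicate, though such a difference does not show that they were separate cultures. Replicate numbers did not pair the libraries.

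Members and lists were chosen with earlier results of these data known. Named were the members, SAMD4A, all tested regulators, the 2 largest called rises and falls of each other list, and the 3 nearest genes of each member. Some genes that this rule names are not reported here. ENO2, PPAT, ATIC, SLC38A1, SLC7A10, SLC7A5, SPTLC1, MTHFD2P7, ALDH1L1, MTHFD2L and the cell type markers given singly were named after their values were seen. Alternatives were other scalings, filters and tests (DESeq2 1.42.0, limma 3.58.1), a replicate block and each library left out. Precision is limited by 3 libraries a group.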

Additional observations from a re-analysis of the deposited data

How the results depend on the processing

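The 6 lower members kept their direction and their call under all 14 alternatives, with log2 fold changes of -1.55 to -1.34 for ALDH1L2, -1.09 to -0.89 for PSAT1, -1.08 to -0.86 for MTHFD2, -0.95 to -0.74 for SHMT2, -0.92 to -0.71 for PSPH and -0.53 to -0.34 for PHGDH. The count of higher members was 0 with upper-quartile factors and 0 with total counts only, and 1 to 2 with a library left out. With total counts only, 2704 genes of all were higher and 6410 lower, and MTHFD1 (-0.027), MTHFD1L (-0.15), ATIC (-0.11) and PRPS1 (-0.027) turned negative. That scaling moved the median of all genes to -0.17. The cause of these shifts was not tested.

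Same-numbered libraries of the groups did not deviate together (correlations of -0.02, -0.01 and -0.04). With the replicate block 4241 genes were higher and 4193 lower, 6 members were lower and 2 higher, and E2F1 lost its call (edgeR adjusted p = 0.051). The log2 ratio differences in the paired analysis with this block were -0.98, -1.06 and -0.12, each with an exact p = 0.25. With a prior count of 2 they were -0.98, -1.06 and -0.12.

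The falls among other cytosolic folate genes numbered 2 with upper-quartile factors, without or with a stricter low-count filter, with limma-voom and with the replicate block. Other mitochondrial folate genes had 0 falls by edgeR without knockdown replicate 2 or 3 or control replicate 2 or 3, where GCAT did not pass. With total counts only, 1 regulator and 1 gene that uses serine were higher.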
